A study of Mus musculus with 4 samples.

Results

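The cytosolic ribosomal protein genes were followed through 4 single-cell RNA libraries of mouse bone marrow. A gene counted as a member if its symbol was Rpl or Rps followed by a digit, or Rpsa, Rplp0, Rplp1 or Rplp2. The 5 pseudogenes ending in -ps and the 10 Rps6k kinases were left out. The rule found 86 of the 32285 genes in the files. Of these, 77 were core ribosomal protein genes, 46 of the large and 31 of the small subunit, and 8 were like-named paralogues (Rps27l, Rps27rt, Rpl22l1, Rpl36al, Rpl7l1, Rpl3l, Rpl10l and Rpl39l). Rps19bp1 also matched the naming pattern but does not encode a ribosomal protein. The rule used no measured value.

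Ribosomes are built from a large and a small subunit, each made of ribosomal RNA and a set of proteins needed in equal number. The transcripts of these proteins are among the most abundant of a growing cell, and many begin with a cytosine followed by a run of pyrimidines, the terminal oligopyrimidine (TOP) tract through which mTOR and LARP1 adjust their translation. Blood formation is sensitive to ribosome supply: loss of a single copy of one of several ribosomal protein genes causes Diamond-Blackfan anaemia in people, and RPS14 lies in the region lost in the 5q- syndrome.

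The libraries came from CD45.2+Kit+ bone marrow taken 10 weeks after transplantation, one each from the groups labelled control, Mll3SI, Mll4SI and Mll3/4SI. CD45.2 is a leukocyte surface marker used to tell donor from recipient cells, and Kit is the stem cell factor receptor of blood progenitors. MLL3 and MLL4 are histone H3 methyltransferases encoded by Kmt2c and Kmt2d. The library names given for them are wt, mll3KI, mll4KI and dKI. The labels do not spell out SI or KI and give no promoter, Cre driver, number of animals, age of the animals or sex. RNA was counted as unique molecular identifiers (UMIs) with a 3′ method, together with 15 barcoded antibodies, which were used here only for the 2 hashtags that split each library into 2 sets of cells. The labels do not say what the hashtags marked. The 2 sets are parts of 1 library and are not replicates of a group. Hashtag values of single genes are given for chosen genes only. How many of all genes separate the libraries by hashtag set was not counted. With 1 library per group no test between groups was possible, and all 3 comparisons share the control library. Values are given with counting error only, and nothing here measures the spread between animals. Where 4 values stand in a row below, they belong to control, Mll3SI, Mll4SI and Mll3/4SI; where 3 do, control is left out. A gene was called higher or lower when its CPM + 1 was at least 25% above or at least 20% below that of control (between classes, that of HSC/MPP-like cells), the same distance on the log2 scale (0.32).

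After filtering, 6743 control, 8023 Mll3SI, 10186 Mll4SI and 6755 Mll3/4SI cells remained, with a median of 12800 to 19172 UMIs per cell. Pairs of libraries shared 16 to 29 cell barcodes, at most 0.355% of a library. Kmt2c stood at 110.0 to 148.0 CPM (counts scaled to a library or class total of 1000000 UMIs) and Kmt2d at 33.3 to 41.5 CPM over all cells, so neither was absent from a library, and since the labels do not say what was altered, these 3′ counts do not check them. Xist, the RNA that coats the inactive X chromosome, had at most 0.212 CPM in control and Mll3SI HSC/MPP-like cells but 2529 and 2227 CPM in Mll4SI and Mll3/4SI. Xist is made in cells with 2 X chromosomes. The sex of the source cells therefore cannot be told apart from the genotype when Mll4SI or Mll3/4SI is compared with control, for the X-linked members and for all the others. Cells were sorted into classes by marker genes. The class names carry "-like", since they were rebuilt from clusters. HSC/MPP-like cells, named for stem and multipotent progenitor markers, had 147.0 to 281.0 CPM of Mecom against at most 13.8 CPM in early granulocyte-like cells. Early granulocyte-like cells carried primary granule transcripts, with Elane at 12695 to 14736 CPM. Late granulocyte-like cells carried secondary granule transcripts, with Ltf at 4286 to 7071 CPM, and had Kit at 33.2 to 55.3 CPM against 202.0 to 236.0 CPM in HSC/MPP-like cells. In late granulocyte-like cells different clusters held most of the cells in different libraries: cluster 2 was 97.1% Mll4SI and cluster 0 was 81.6% Mll4SI, while cluster 13 was 99.8% Mll3/4SI and cluster 22 held 284 cells, all from Mll3/4SI. Cluster 9, which still carried intermediate-stage transcripts, was 57.7% Mll3SI. Erythroid-like cells were cluster 16 alone, with 968 cells. It held 14 erythroid markers but also 7 basophil and mast cell markers, with Mcpt8 among its leading genes. At Leiden resolution 2 a Basophil/mast-like cluster of 404 cells and an Erythroid-like cluster of 508 cells were named. Values of the Erythroid-like class may therefore include basophil and mast cell progenitors. Clusters that stayed unnamed are in no class. Among them were cluster 15, with 973 cells, all from Mll3/4SI, and cluster 18, with 525 cells, 99.8% from Mll3/4SI. Ribosomal protein transcripts took 24.6% and 23.5% of their UMIs. The class values of Mll3/4SI therefore do not describe these cells. HSC/MPP-like cells made up 12.0%, 10.0%, 6.0% and 4.69% of the kept cells (806, 805, 611 and 317 cells). These numbers leave out cluster 17, which had 10 HSC/MPP and 8 megakaryocyte markers and stayed unnamed. It held 72, 96, 60 and 331 cells, 59.2% of them from Mll3/4SI. The low Mll3/4SI percentage therefore depends on where this cluster is placed.

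Transcription starts are shown for genes on which the results below turn, because the pyrimidine tract is the shared feature by which these transcripts are known. Each line gives 15 bases before and 15 from the RefSeq start on, 5′ to 3′ on the gene's strand, from RefSeq on mouse build GRCm38.p6. Capitals mark a tract, defined as a C and at least 4 further bases that are each C or T, beginning no more than 5 bases from the start. Only the gene's own strand was searched.
Rpl38: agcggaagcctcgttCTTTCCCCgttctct
Rps27: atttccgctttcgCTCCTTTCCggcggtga
Rps27rt: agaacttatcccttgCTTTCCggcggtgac
Rpl13a: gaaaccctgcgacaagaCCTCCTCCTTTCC
Rps6: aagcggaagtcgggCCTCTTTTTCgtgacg
Rpl12: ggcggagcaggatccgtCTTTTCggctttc
Rpl37a: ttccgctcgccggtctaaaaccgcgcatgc
Rplp0: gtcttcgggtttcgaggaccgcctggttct
Rpl5: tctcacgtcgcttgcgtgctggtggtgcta

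These windows lie at chr11:114668565-114668594 (Rpl38, plus strand), chr3:90213634-90213663 (Rps27, minus), chr9:114982725-114982754 (Rps27rt, minus), chr7:45128731-45128760 (Rpl13a, minus), chr4:86857353-86857382 (Rps6, minus), chr2:32961697-32961726 (Rpl12, plus), chr1:72711245-72711274 (Rpl37a, plus), chr5:115559452-115559481 (Rplp0, plus) and chr5:107900513-107900542 (Rpl5, plus). Of the 86 members, 66 had an entry in the RefSeq start table. Among the 77 core genes 57 had one, and 27 of these, 47.4%, held a tract under this definition. The share was 41.2% (7 of 17) for elongation factors and other TOP genes, 24.6% (17 of 69) for mitochondrial ribosomal proteins and 17.1% (6 of 35) for ribosome biogenesis genes. Over all 27025 genes of the table it was 21.2%. The match depends on how exactly the annotated start is placed, and the absence of a match in Rpl37a, Rplp0 and Rpl5 says only that these letters are not in the window.

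Ribosomal protein transcripts took up between 15.3% and 26.5% of UMIs in 7 classes and between 3.67% and 4.61% in late granulocyte-like cells. In control cells the share of gene UMIs was 25.1% in Erythroid-like, 24.1% in early granulocyte-like, 23.7% in Monocyte-like and 22.9% in HSC/MPP-like cells. It was 21.1% in B-lymphoid-like, 20.3% in T/NK-like and 17.4% in Dendritic-like cells, which held 70, 26 and 37 control cells. Late granulocyte-like cells stood at 4.18%. The other 3 libraries gave late granulocyte-like shares of 4.61%, 3.67% and 4.57%, so this class lay below every other class in each library. Against HSC/MPP-like cells the share was 5.48-, 4.73-, 6.09- and 5.38-fold lower in the 4 libraries.

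**Figure D1:**
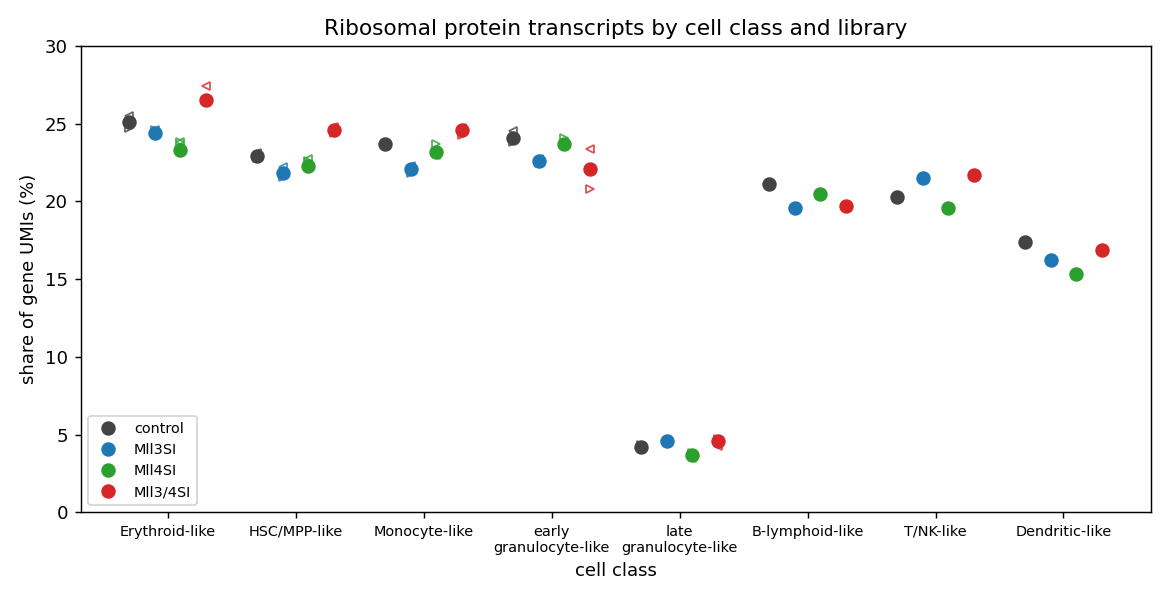
Share of gene UMIs taken by the 86 ribosomal protein genes (y axis, %) in each cell class (x axis) and library (colour). Filled points are whole libraries and open triangles the cells of the 2 hashtags (left-pointing Hashtag1, right-pointing Hashtag2) where at least 50 cells were present. Late granulocyte-like cells sit between 3.67% and 4.61%, and every other class at 15.3% or more.

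In numbers of molecules, the median control cell held 5070 ribosomal protein UMIs in the HSC/MPP-like class and 528 in the late granulocyte-like class. Its UMIs from all other genes were 16776 and 14281. The low share of late granulocyte-like cells therefore went with fewer ribosomal protein UMIs at a similar number of other UMIs. The genes S100a8 and S100a9, abundant granulocyte proteins, alone made up 18.0% to 24.4% of the late granulocyte-like UMIs.

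Single genes followed the sum. For 81 members the mean of both classes reached 50 CPM, and all 81 were lower in late granulocyte-like than in HSC/MPP-like cells in each of the 4 libraries. Of all genes of that level, 52.6%, 53.3%, 52.6% and 53.2% were lower and 27.2%, 26.6%, 25.9% and 24.5% higher, while no member was higher. The median member had a log2 ratio of -2.44, -2.23, -2.61 and -2.39. Rpl12, a protein of the GTPase-associated centre of the large subunit, was lowest in every library, at -3.56, -3.22, -3.79 and -3.43. Rps2, a small-subunit protein near the messenger RNA entry site, followed in 3 libraries at -3.45, -3.67 and -3.30 (control, Mll4SI, Mll3/4SI), and was the third lowest in Mll3SI at -3.02. At the other end stood Rpl7l1, a paralogue of Rpl7, at -1.24, -1.16, -1.21 and -1.21. Rps9 was among the 3 least lowered members in control (-1.53), Mll3SI (-1.38) and Mll3/4SI (-1.71).

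The step between the 2 levels fell within the granulocyte clusters. The 2 early granulocyte-like clusters (7 and 11) stood at 23.4% and 22.8% over all libraries. Clusters 9 and 12, which already had 110944 and 118023 CPM of late granule transcripts and still the highest intermediate-stage transcripts (Fcnb, Cebpe, Gstm1 and Serpinb1a together at 3727 and 3548 CPM), stood at 6.96% and 5.97%. The other 8 late granulocyte-like clusters ranged from 2.17% to 5.71%. The lowest of them, cluster 21, had a median of only 5134 UMIs per cell and was 73.1% Mll4SI.

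**Figure D2:**
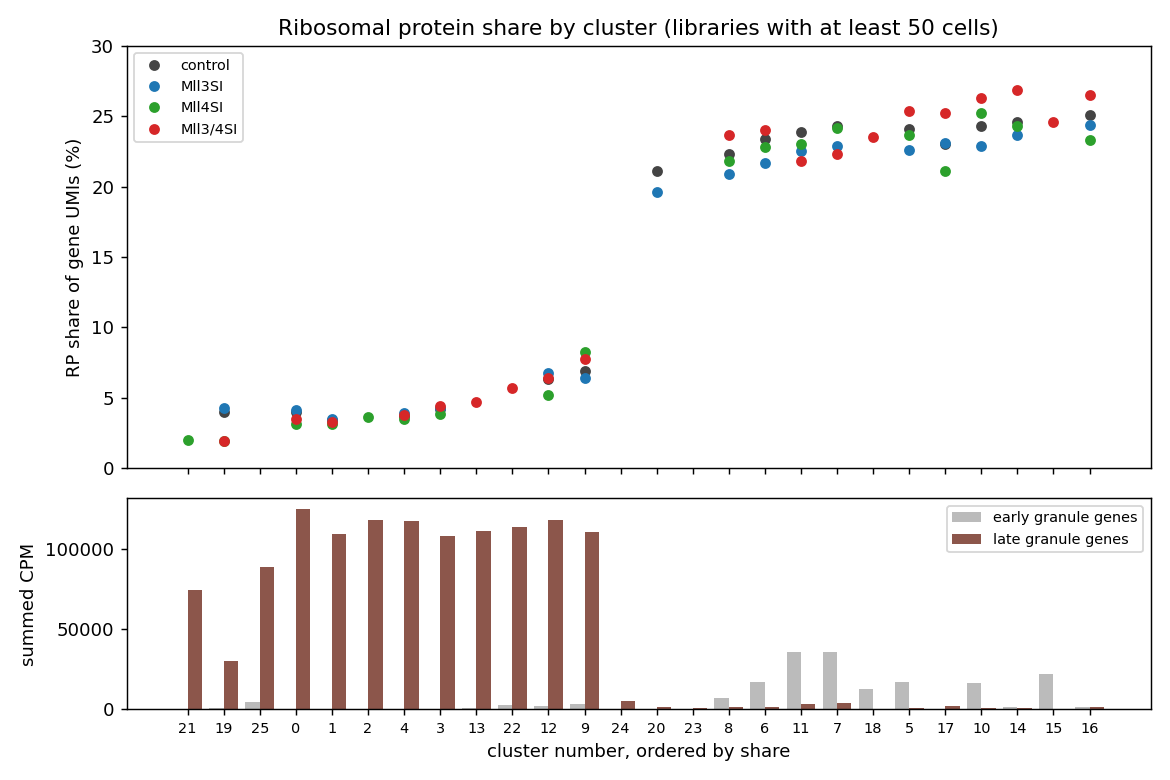
Upper panel: ribosomal protein share (%) of each cluster and library, with clusters ordered by their share over all libraries. Lower panel: summed CPM of 4 early granule genes (Elane, Prtn3, Ctsg, Mpo) and of 7 late granule genes (Ltf, Camp, Ngp, Lcn2, Cd177, Ly6g, Mmp8) in the same clusters. Clusters 12 and 9, at 5.97% and 6.96%, lie between the other late granule clusters and the clusters above 16%.

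Other classes had their own small departures from HSC/MPP-like cells that recurred in the 4 libraries. In early granulocyte-like cells Rpl36al, a paralogue of Rpl36a, was the highest member relative to HSC/MPP-like cells in each library, with log2 ratios of 0.56, 0.58, 0.51 and 0.50. Rplp0, the stalk base protein, had 0.53, 0.51, 0.45 and 0.25 there. Rpl5, Rpl13a and Rpl4 were the 3 lowest in every library, Rpl5 at -0.43, -0.44, -0.32 and -0.69. In all 3, 5, 2 and 18 members were lower (36.2%, 38.9%, 37.9% and 40.0% of all genes), and 4, 4, 3 and 1 higher (19.1%, 20.1%, 17.8% and 19.0% of all genes). Monocyte-like cells had Rps14 as the lowest member in every library (-0.21, -0.29, -0.18 and -0.28) and Rpl36al among the higher ones (0.44, 0.45, 0.47 and 0.43). In T/NK-like cells Rps27 had log2 ratios of 0.78, 0.79, 0.72 and 0.45, and Rps27l had -0.87, -2.16, -1.39 and -0.94, from only 10 to 47 cells per library.

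Between genotypes, the share within progenitor classes moved little. In HSC/MPP-like cells it was 22.9% (control, 95% exact counting interval 22.88% to 22.91%), 21.8%, 22.3% and 24.6%, with log2 ratios of -0.07, -0.04 and 0.10. The 2 hashtag sets lay close together: 23.1% and 22.8% for control, 22.2% and 21.6% for Mll3SI, 22.7% and 22.6% for Mll4SI, 24.8% and 24.4% for Mll3/4SI. Both Mll3/4SI sets thus lay above the other 6, and both Mll3SI sets below them. Share also varied with depth within a class. Among HSC/MPP-like cells with 10000 to 20000 UMIs it was 24.3%, 22.4%, 23.6% and 27.4%, and with 20000 to 40000 UMIs 22.6%, 20.8%, 22.2% and 24.6%, so the order of the libraries was the same in these 2 ranges. Between 5000 and 10000 UMIs it was not, with 23.2% in 41 control cells, 24.9% in 119 Mll3SI cells and 24.7% in 26 Mll4SI cells; Mll3/4SI had 11 cells there. The Mll4SI cells of this class also held more late granule and S100a8 and S100a9 RNA: Ltf stood at 35.4, 34.1, 221.0 and 20.4 CPM, and S100a8 plus S100a9 at 0.118%, 0.104%, 0.533% and 0.118% of UMIs.

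Monocyte-like cells gave the same order, with 23.7%, 22.1%, 23.2% and 24.6%. In Erythroid-like cells the values were 25.1%, 24.4%, 23.3% and 26.5%. Early granulocyte-like cells differed, in that Mll3/4SI was the lowest of the 4 at 22.1%, against 24.1%, 22.6% and 23.7% for control, Mll3SI and Mll4SI. There the 2 hashtag sets of Mll3/4SI stood at 23.4% and 20.8%, and those of control at 24.5% and 23.8%. The lower quartile of single Mll3/4SI cells was 17.4% against 22.8% in control, and the 5th percentile 11.1% against 18.4%. S100a8 and S100a9 together took 4.77% of the UMIs of these Mll3/4SI cells against 0.729%, 0.801% and 1.51% in the others, and the 7 late granule genes took 0.142%, 0.280%, 0.617% and 0.511%, highest in Mll4SI. By depth, the early granulocyte-like share was 24.1%, 22.8%, 24.3% and 18.6% between 10000 and 20000 UMIs, and 24.1%, 22.4%, 23.3% and 22.9% between 20000 and 40000 UMIs, where Mll3SI and not Mll3/4SI was lowest. The part of these transcripts, or of cells between the early and late stages, in the lower share was not tested. Mll3/4SI also lay below control in B-lymphoid-like cells (21.1%, 19.6%, 20.5% and 19.7%) and in Dendritic-like cells (17.4%, 16.2%, 15.3% and 16.9%). In T/NK-like cells it did not (20.3%, 21.5%, 19.6% and 21.7%). Few cells stood behind the values of these classes.

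**Figure D3:**
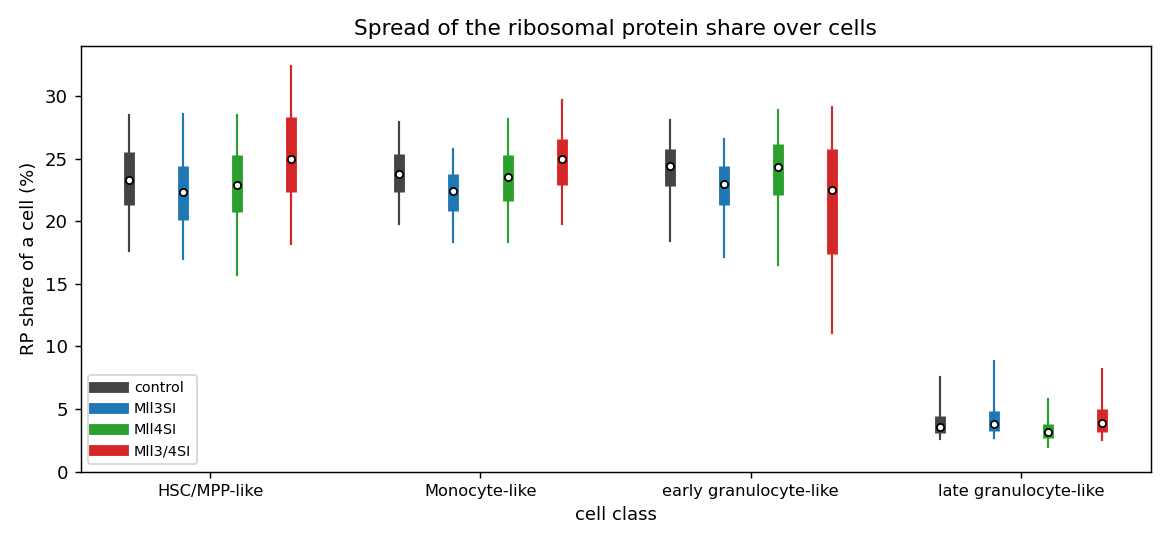
Ribosomal protein share of single cells (y axis, %) in 4 classes, by library. White points are medians, thick bars the middle 50% of cells and thin lines the 5th to 95th percentiles. The lower tail of early granulocyte-like Mll3/4SI cells reaches 11.1%, against 18.4% in control.

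Granulocyte- and monocyte-like cells as 1 pooled class showed a larger difference, which followed the makeup of the class. Their pooled share was 12.4%, 13.5%, 9.23% and 9.27%, with log2 ratios of 0.12, -0.43 and -0.43. In Hashtag1 cells alone the ratios were 0.27, -0.28 and -0.25, and in Hashtag2 cells -0.01, -0.55 and -0.60, so the direction in Mll3SI turned with the hashtag. Late granulocyte-like cells supplied 58.0%, 49.7%, 71.7% and 75.0% of the class's UMIs. With the 3 sub-classes weighted as in control, the shares were 12.1%, 12.0% and 12.5%, and the log2 ratios -0.04, -0.05 and 0.01. In the pooled class, 72 of the 83 measured members were lower in Mll4SI (18.0% of all 7714 measured genes were) and none higher (6.21%). For Mll3/4SI 58 of 83 were lower (19.7% of all) and none higher (2.93%). With median-of-ratios scaling in place of CPM, which moved all ratios of that comparison by 0.13, the 58 became 32. In Mll4SI the same scaling moved the ratios by 0.10, and fewer than 72 members stayed lower. Rpl7, for example, then stood at -0.28. In Mll3SI 1 member was higher (Rps2; 4.33% of all genes were) and 1 lower (Rps27rt; 3.41% of all). The ends of the ranking held partly the genes that also stood out within HSC/MPP-like cells, described below. The 3 highest were Rps2 (0.35), Rpl14 (0.28) and Rpl15 (0.27) in Mll3SI, Rps29 (-0.17), Rpl37a (-0.22) and Rpl7l1 (-0.24) in Mll4SI, and Rps29 (0.27), Rpl37a (0.09) and Rpl38 (0.08) in Mll3/4SI. The 3 lowest were Rps27 (-0.20), Rpl36 (-0.14) and Rps28 (-0.08), then Rpl41 (-0.64), Rpl11 (-0.63) and Rps2 (-0.59), then Rps2 (-0.94), Rpl13a (-0.75) and Rpl5 (-0.73). Among cells of Hashtag1 alone Rpl36 and Rps28 lay above control in Mll3SI (0.01 and 0.08), and among those of Hashtag2 Rpl37a and Rpl38 lay below it in Mll3/4SI (-0.03 and -0.08).

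Within HSC/MPP-like cells 83 of the 86 members were measured, taken as a mean of at least 10 CPM over the 4 libraries. Rpl10l and Rpl39l had no UMI there, and Rpl3l was below 1 CPM in each library. In Mll3SI no member was higher (1.92% of all 8705 genes were), and 2 were lower, Rps27 and Rps27rt (2.46% of all). In Mll4SI none was higher (5.1% of all) and only Rps27rt was lower (4.88% of all). In Mll3/4SI 13 members were higher (4.17% of all), and 1, Rpl13a, was lower (4.95% of all). At a stricter fold of 1.5, 2 of the 13 were left, Rps29 and Rpl38. The median log2 ratio of the members was -0.09, -0.05 and 0.09, beside 0.01, -0.01 and -0.05 over all measured genes. Members with a ratio above 0 numbered 14, 14 and 66 of 83. Both subunits gave like values: the 46 core large-subunit genes had medians of -0.08, -0.04 and 0.10 with 8 higher in Mll3/4SI, and the 31 small-subunit genes -0.10, -0.05 and 0.09 with 5 higher.

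The 13 higher members in Mll3/4SI were Rps29, Rpl38, Rpl37a, Rps28, Rpl37, Rps21, Rpl41, Rpl36, Rpl39, Rps26, Rpl35, Rps27 and Rpl34. Rps29, a small-subunit zinc-binding protein encoded at chr12:69157722-69159186 (minus strand, GRCm38), had 2044, 1783, 2201 and 3130 CPM. Its log2 ratio in Mll3/4SI was 0.61 (95% counting interval 0.59 to 0.64). Rpl38, a large-subunit protein whose tract is printed above and whose loss in mice alters the axial skeleton, had 968, 842, 1004 and 1467 CPM, a log2 ratio of 0.60 (0.57 to 0.63). Rpl37a had 2030, 1921, 2130 and 2886 CPM, with 0.51 (0.48 to 0.53). For each of these 3 genes the Mll3/4SI library was the highest and the Mll3SI library the lowest. The other short genes had the same 2 libraries at their ends in most cases. Rps28, near the exit of the messenger RNA channel, had 1252, 1040, 1148 and 1744 CPM, and Rpl37 had 1744, 1493, 1626 and 2346 CPM. Rpl41, the shortest of the proteins, had 1889, 1617, 1599 and 2492 CPM, with Mll4SI a little below Mll3SI. The hashtag sets kept the order for the first gene: Rps29 had 3156 and 3100 CPM in the Mll3/4SI sets, 1815 and 1765 in those of Mll3SI, and 2032 to 2246 in the other 4.

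At the other end of the Mll3/4SI comparison stood Rpl13a, Rps2 and Rpl5. Rpl13a, a large-subunit protein also known as a translational silencer after its release from the ribosome, had 2524, 2321, 2424 and 2003 CPM, a log2 ratio of -0.33 (-0.36 to -0.31). Rps2 had 4536, 4816, 4508 and 3895 CPM (-0.22). Rpl5, which with Rpl11 and 5S RNA binds Mdm2, had 2724, 2793, 2698 and 2356 CPM (-0.21). In each case Mll3/4SI was the lowest library, but Rps2 and Rpl5 did not pass the limit for a call. Rpl13a did not either under median-of-ratios scaling or in cluster 14 of the class alone.

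The members at the 2 ends differed in length. The 9 core genes with a coding part under 300 nucleotides were Rpl41, Rpl39, Rps29, Rps28, Rpl38, Rps21, Rps27, Rpl37a and Rpl37. In HSC/MPP-like cells they had a median log2 ratio of 0.43 in Mll3/4SI, and 9 of 9 were higher. The 27 core genes of 300 to 450 nucleotides had a median of 0.17 with 4 higher, the 19 of 450 to 600 nucleotides 0.02 with none higher, and the 22 of at least 600 nucleotides 0.01 with none higher and 1 lower. In the Mll3SI comparison the medians of the same 4 sets were -0.22, -0.15, -0.06 and -0.03, and in Mll4SI 0.00, -0.07, -0.04 and -0.01. Across the 77 core genes the log2 ratio went with coding length at Spearman's rho = -0.79 (Pearson's r = -0.66) for Mll3/4SI, 0.69 (0.56) for Mll3SI and 0.27 (0.25) for Mll4SI. These are descriptions over genes of the same libraries, which are not independent replicates, and the 3 comparisons share the control library. With the GC content of the coding part rho was 0.14, 0.06 and 0.03, and with mean CPM -0.33, 0.52 and 0.12, in the same order.

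**Figure D4:**
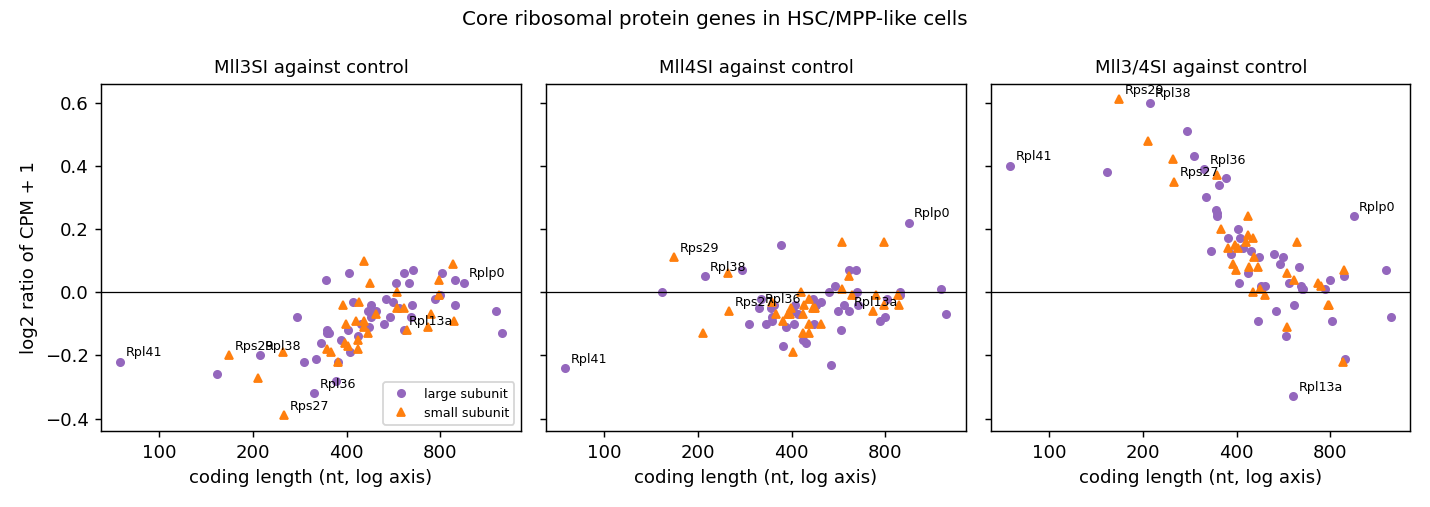
Log2 ratio of CPM + 1 to control in HSC/MPP-like cells (y axis) against coding length in nucleotides (x axis, log scale) for the 77 core genes, 1 panel per comparison. Circles are large-subunit and triangles small-subunit genes. In Mll3/4SI the short genes lie highest, with Rps29 at 0.61 and Rpl38 at 0.60, and in Mll3SI they lie lowest, with Rps27 at -0.39.

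The 140 genes outside the rule with a coding part under 300 nucleotides and at least 50 CPM had a median log2 ratio of 0.05 in Mll3/4SI, with 25 higher and 3 lower. Those of 300 to 450 nucleotides (279 genes) had a median of 0.00, with 24 higher and 5 lower. Those of 450 to 600 (292) had -0.04, with 9 higher and 8 lower. Those of at least 600 (2872) had -0.07, with 38 higher and 63 lower. The part called higher thus fell with coding length outside the rule as well. Of all 8705 measured genes, 4.17% were higher and 4.95% lower. In Mll3SI the 4 medians were -0.02, 0.05, 0.08 and 0.02. Whether transcript length as such or another property of these libraries lies behind the order of the members was not tested.

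The order recurred in the other classes of the same libraries. In Mll3/4SI rho with coding length was -0.78 in early granulocyte-like, -0.67 in late granulocyte-like, -0.80 in Monocyte-like and -0.70 in Erythroid-like cells. In Mll3SI it was 0.66, 0.67, 0.71 and 0.72, and in Mll4SI 0.07, 0.06, 0.21 and 0.16. The summed share of the 9 shortest genes in HSC/MPP-like cells was 1.57%, 1.35%, 1.55% and 2.16%. In late granulocyte-like cells it was 0.318%, 0.319%, 0.302% and 0.462%, and in Monocyte-like cells 1.65%, 1.38%, 1.65% and 2.19%. The 22 longest took 6.88% in control HSC/MPP-like cells and 6.81%, 6.93% and 6.88% in the other libraries. So the higher Mll3/4SI share in HSC/MPP-like cells went with the shorter genes, while the sum of the longest was the same as in control to 3 digits.

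Of the 13 members higher in HSC/MPP-like Mll3/4SI cells, 8 (61.5%) were also higher in Monocyte-like cells, where no other member was (3.59% of all genes were): Rpl37, Rpl37a, Rpl38, Rpl39, Rpl41, Rps21, Rps28 and Rps29. No member was lower there (2.93% of all genes). In Erythroid-like cells 9 members were higher (8.69% of all genes), these 8 and Rpl36, 69.2% of the 13, and Rpl13a was lower (15.1% of all genes). In late granulocyte-like cells 13 were higher (4.68% of all genes) and none lower (7.74%). In early granulocyte-like cells 2 members were higher, Rpl38 and Rps29 (8.18% of all genes), and 8 were lower, Rpl4, Rpl5, Rpl7, Rpl9, Rpl13a, Rpl22l1, Rps2 and Rps14 (13.6% of all genes). Both counts were a smaller part of the members than of all genes. In this class Rps2 had 6073, 6514, 5618 and 4121 CPM, a log2 ratio of -0.56. By hashtag the 2 Mll3/4SI values were 4610 and 3638 CPM, and the other 6 lay between 5572 and 6621. In the Mll3SI comparison Rps27, Rps27rt and Rpl36 were lower in the early granulocyte-like, Monocyte-like and Erythroid-like classes alike (3.26%, 1.95% and 5.52% of all genes were), with none higher (1.34%, 1.19% and 4.91%). In the Mll4SI comparison Rps27rt alone was lower in each of these classes (5.6%, 3.47% and 7.55% of all genes), and again none was higher (5.38%, 4.47% and 11.7%).

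**Figure D5:**
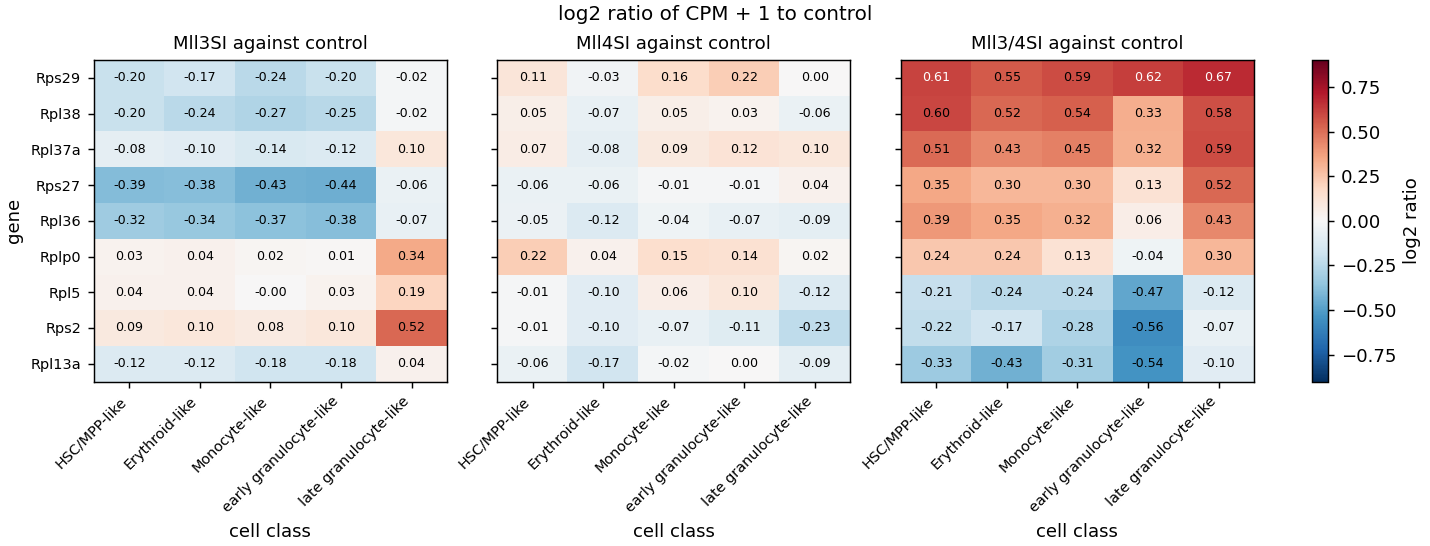
Log2 ratio of CPM + 1 to control for 9 members (rows) in 5 cell classes (columns), 1 panel per comparison, with the value printed in each cell and colour running from blue (lower) to red (higher). Rps29 lies between 0.55 and 0.67 in all 5 classes of Mll3/4SI, and Rps27 between -0.44 and -0.38 in the 4 progenitor classes of Mll3SI.

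Rps27, a zinc-finger protein of the small subunit, gave the largest difference of a core gene in Mll3SI within HSC/MPP-like cells. It had 1367, 1045, 1315 and 1739 CPM, with a log2 ratio of -0.39 (-0.42 to -0.36) in Mll3SI. The Mll3SI value was the lowest and the Mll3/4SI value the highest, and the hashtag sets kept this order, at 1058 and 1044 CPM in Mll3SI, 1332 to 1380 in control and Mll4SI, and 1735 and 1757 in Mll3/4SI. Rps27rt had 62.0, 43.5, 38.0 and 61.5 CPM. The coding parts of Rps27 and Rps27rt were identical over all 252 nucleotides, and the 2 start windows share a run of 38 bases, which begins within the capitals printed above and goes on past the printed stretch. Reads from the shared sequence therefore do not tell the 2 genes apart, and the single values are uncertain. How such reads were counted was not examined, so the sum of the pair may miss some of them. Summed, the pair had 1429, 1088, 1353 and 1800 CPM (log2 ratios -0.39, -0.08 and 0.33). Rpl36, a large-subunit protein, was the next lowest in Mll3SI, with 1350, 1082, 1304 and 1769 CPM and a log2 ratio of -0.32 (-0.35 to -0.29), just short of the limit. In early granulocyte-like, Monocyte-like and Erythroid-like cells it lay past the limit, at -0.38, -0.37 and -0.34.

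The Mll4SI comparison had the fewest calls in HSC/MPP-like cells. Its highest member was Rplp0, which anchors the P-stalk where elongation factors bind, with 2962, 3020, 3447 and 3507 CPM (log2 ratio 0.22 in Mll4SI, 0.20 to 0.24). By hashtag it had 2924 to 3098 CPM in control and Mll3SI and 3468 to 3515 CPM in Mll4SI and Mll3/4SI. The other stalk genes did not share this in Mll4SI: Rplp1 had 4289, 4416, 4151 and 5147 CPM and Rplp2 2728, 2502, 2554 and 3223 CPM. Rpl41 (1889, 1617, 1599 and 2492 CPM) and Rpl11 (3205, 3158, 2740 and 3069 CPM) had the lowest core ratios in Mll4SI, -0.24 and -0.23. In late granulocyte-like Mll4SI cells 10 members were lower (10.8% of all genes) and none higher (5.72%), with Rps12 at 731 CPM in control and 554 in Mll4SI (-0.40). In late granulocyte-like Mll3SI cells 3 were higher, Rplp0, Rpl14 and Rps2 (2.55% of all genes), and none lower (2.55%), and Rps2 had 413 CPM in control against 592 (0.52).

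The 16 mouse counterparts of Diamond-Blackfan anaemia genes were all measured. In HSC/MPP-like cells none was called in Mll3SI or Mll4SI, with medians of -0.12 and -0.10, and 3 were higher in Mll3/4SI (Rps26, Rps28 and Rps29), with a median of 0.09, beside 13 of 83 measured members and 4.17% of all genes. Rps19, the gene most often affected in that disease, had 3241, 2867, 2959 and 3815 CPM. Rpl11, Rps7, Rps10, Rpl5 and Rpl15 were the 5 below 0 in Mll3/4SI, at -0.06, -0.11, -0.01, -0.21 and -0.04. Rps14 had 4804, 5163, 4743 and 4805 CPM. Rps6, the target of the S6 kinases, had 2440, 2321, 2415 and 2477 CPM, and its ratios lay between -0.07 and 0.02.

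Among the paralogues 5 of 8 were measured. Rpl22 had 2137, 1928, 1978 and 2317 CPM in HSC/MPP-like cells and its paralogue Rpl22l1, whose product can replace it in the large subunit, 898, 787, 883 and 833 CPM. In Mll3/4SI the ratio of Rpl22 was 0.12 and that of Rpl22l1 -0.11. Rps27l, a p53 target in man and mouse, had 597, 613, 514 and 600 CPM. Rpl36al had 719, 650, 617 and 809 CPM and Rpl36a 1499, 1297, 1473 and 1851 CPM. Their coding parts were 87.7% identical, with 39 mismatches over 318 nucleotides. Whether reads of this pair were confused was not examined. Of the members 4 lie on the X chromosome, namely Rpl10, Rpl36a, Rpl39 and Rps4x, beside the Xist values given above. Rps4x had 4619, 4733, 5160 and 4491 CPM, and Rpl10 2210, 2084, 2324 and 2241 CPM.

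For the lists of other translation genes in HSC/MPP-like cells, the shares of all genes called higher were 1.92%, 5.1% and 4.17%, and lower 2.46%, 4.88% and 4.95%. Counts this small in short lists cannot be told apart from those shares. Fau, whose product is a ribosomal protein fused to a ubiquitin-like protein, and Rack1, a protein of the small subunit, lie outside the naming rule. In HSC/MPP-like cells Fau had 2379, 2120, 2300 and 2865 CPM and Rack1 2337, 2350, 2435 and 2294 CPM. Neither passed the limit in any of the 3 comparisons. Of 23 elongation factors and other TOP genes, none passed in Mll3SI or Mll4SI and 1, Snhg8, was higher in Mll3/4SI, where their median was -0.07. Eef1a1, the main elongation factor, had 7060, 7334, 7772 and 6712 CPM. Of 40 ribosome biogenesis genes 0, 1 and 2 were lower in the 3 comparisons (Bop1 in Mll4SI, Polr1b and Grwd1 in Mll3/4SI) and none higher. Of 78 mitochondrial ribosomal protein genes only Mrpl52 passed, lower in Mll4SI. Of 18 measured genes of a list on the mTOR-LARP1 and Myc pathways, those called were transcription factors of the Myc and Max network: Mycn was higher in Mll3SI, Mxd4 and Mxd1 were higher in Mll4SI and Mxi1 was lower in Mll3/4SI. Larp1 had 164, 169, 160.0 and 167 CPM. Of 9 measured p53 targets, Aen alone passed, lower in Mll3/4SI.

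In early granulocyte-like cells of Mll3/4SI more of these genes were lower. They included 21 of 40 ribosome biogenesis genes (median -0.34; Ncl, Fbl, Nop56 and Dkc1 among them), 12 of 23 elongation factors and other TOP genes (median -0.33; Eef1a1, Npm1 and Naca among them) and 16 of 78 mitochondrial ribosomal protein genes (median -0.16). The background in that comparison was 13.6% of 7888 genes lower with a median of -0.07. In these cells S100a8 and S100a9 took 4.77% of UMIs, against 0.729%, 0.801% and 1.51% in control, Mll3SI and Mll4SI. At Leiden resolution 2, cluster 24 carried both early (19150 CPM) and late (60885 CPM) granule transcripts. It held 61 control, 125 Mll3SI, 96 Mll4SI and 193 Mll3/4SI cells. Clusters 6 and 11 there, both led by Elane, held 343 and 297 control but 131 and 149 Mll3/4SI cells. The early granulocyte-like class had 649 control and 410 Mll3/4SI cells. How many of its cells fell in cluster 24 was not counted. A link of the lower genes with the S100a8 and S100a9 share or with such a mix of stages was not tested. In Mll3SI and Mll4SI, 1 and 3 of the 40 biogenesis genes and none of the 23 elongation and TOP genes were lower.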

How the data were processed

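Each library was deposited as a matrix of UMI counts per gene and cell barcode, made by the authors with Cell Ranger 7.1.0 on mm10, per the submitters' processing notes. The annotation release and cell-calling settings are not given in the sources used here. Free RNA could not be measured without empty droplets. Genes kept their file symbols; coordinates and coding parts came from GENCODE M21 on GRCm38, matched by gene ID (86 of 86 members), taking a complete principal transcript. Groups came from sample titles. Cells with at least 500 genes, at least 1000 UMIs and at most 10% mitochondrial UMIs were kept, and the top 0.8% per 1000 cells by Scrublet score were removed as doublets. Python 3.11.15, scanpy 1.11.5 and leidenalg 0.10.2 gave 26 clusters at resolution 1 (2000 variable genes without members or markers, 30 components, 15 neighbours). A cluster was named if it had at least 3 markers of a class and a lead of 3 over the next; this lead was chosen after the clusters were seen, and 6 clusters stayed unnamed. Raw counts were summed per class and library and given as CPM. Alternatives covered scaling, fold, minimum CPM, cell filters, clustering and hashtag sets. Ratios are log2 of CPM + 1, which understates changes of low genes. No test was run, since each group has 1 library. Intervals (95%, exact binomial and Poisson-based) cover counting error only; 3′ counts are not scaled by length, so levels of different genes were not compared. The calculation was run on simulated counts with planted changes of 1.5-fold. These held counting error only, so they do not test the limit for a call against spread between libraries or differences in cell mix. Named genes were the 3 highest and 3 lowest members with at least 50 CPM in each comparison of HSC/MPP-like and of granulocyte-monocyte-like cells, the paralogues and partners, the Diamond-Blackfan genes, Rps14, Rps6 and the stalk genes; others are named where a count or the length comparison turns on them. The members, lists and comparisons were chosen with earlier results of these data known. One gene outside the naming rule is not reported here.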

Additional observations from a re-analysis of the deposited data

Results flagged for a closer look

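In Mll3SI the log2 ratio of the ribosomal protein share to control was -0.07 for HSC/MPP-like cells but 0.12 for the pooled granulocyte-monocyte-like class, a difference of -0.19, because the 2 classes lay on opposite sides of control. In Hashtag2 cells alone both lay below control, at -0.07 and -0.01. In Mll3/4SI the values were 0.10 and -0.43, a difference of 0.53. With the sub-classes of the pooled class weighted as in control, its log2 ratios were -0.04 in Mll3SI and 0.01 in Mll3/4SI. The pooled values above thus went with the makeup of that class. Within granulocytes the early and late classes also lay on opposite sides: -0.09 and 0.14 in Mll3SI, a difference of -0.23, and -0.13 and 0.13 in Mll3/4SI, a difference of -0.26. None of these differences was tested, since each group holds 1 library.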

How the results depend on the processing

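No paired analysis was possible because each group holds 1 library. Limits: counting intervals are narrow, so nearly any change of setting moves a share ratio beyond them; depth allows ratios of well-counted members to a few hundredths of a log2 unit, but not paralogues of few counts.

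Share log2 ratios are given for Mll3SI, Mll4SI and Mll3/4SI in turn. In HSC/MPP-like cells they were -0.08, -0.06 and 0.10 with doublets kept; -0.07 and -0.02 (Mll3SI, Mll4SI) without cells over both hashtag thresholds; -0.06, -0.03 and 0.10 in Hashtag1 cells and -0.07, -0.01 and 0.10 in Hashtag2 cells; -0.05, -0.02 and 0.13 in cluster 14 alone and -0.06, -0.04 and 0.12 with cluster 17 added, both chosen after seeing the data; -0.07, -0.03 and 0.10 without the 50 most counted other genes; and -0.05, -0.03 and 0.11 as a mean over cells. Leiden resolution 2 gave -0.04 (Mll4SI) and 0.14 (Mll3/4SI). In granulocyte-monocyte-like cells they were 0.14, -0.41 and -0.41 with doublets kept; 0.12, -0.41 and -0.42 without double-hashtag cells; 0.14, -0.43 and -0.46 at resolution 2; 0.27, -0.28 and -0.25 in Hashtag1 and -0.01, -0.55 and -0.60 in Hashtag2 cells, where Mll3SI changed sign; 0.07, -0.32 and -0.27 without the 50 genes; and 0.18, -0.55 and -0.38 as a mean over cells. The sub-classes alone, chosen after seeing the data, gave -0.09, -0.03 and -0.13 (early granulocyte-like), 0.14, -0.19 and 0.13 (late) and -0.10, -0.03 and 0.05 (Monocyte-like).

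Of the HSC/MPP-like counts, a fold of 1.5 left 2 members higher in Mll3/4SI and 0 lower in Mll3SI and Mll3/4SI; 0 were lower in Mll3/4SI under median-of-ratios scaling, resolution 2, cluster 14 alone or cluster 17 added; and 1 was higher in Mll3SI with no minimum CPM. Of the granulocyte-monocyte-like counts, a fold of 1.5 left 0 higher and 0 lower in Mll3SI, 4 lower in Mll4SI and 14 in Mll3/4SI; median-of-ratios scaling gave 1 higher and 32 lower in Mll3/4SI, and no minimum gave 1 higher in Mll4SI. In early granulocyte-like cells alone 0 were higher and 3 lower in Mll3SI, 1 lower in Mll4SI, and 2 higher and 8 lower in Mll3/4SI; in late cells 3 and 0, 10 lower, and 13 and 0; in Monocyte-like cells 0 and 3, 1 lower, and 8 and 0. Median-of-ratios size factors differed from library totals by log2 values of 0.01, -0.01 and -0.05 in HSC/MPP-like cells. In granulocyte-monocyte-like cells they differed by 0.01, -0.10 and -0.13. Each ratio moved by about the same amount in the opposite direction, so fewer members of the pooled class were lower in Mll4SI as well. Among single genes of the pooled class 4 ratios changed sign: Rpl36 (0.01) and Rps28 (0.08) in Mll3SI Hashtag1 cells, and Rpl37a (-0.03) and Rpl38 (-0.08) in Mll3/4SI Hashtag2 cells. At resolution 2 a cluster of Mll3/4SI cells with Cpa3 and Fcer1a joined the HSC/MPP-like class. The cause of these differences was not tested.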
